A study of Mus musculus with 12 samples.

Results

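Perivascular cells (pericytes and vascular smooth muscle, together called mural cells) were looked for in 12 single-cell libraries of mouse fetal gonads. A cell was chosen when it had at least 1000 detected genes and at most 10% mitochondrial molecules, carried at least 5 unique molecular identifiers (UMIs, each 1 counted RNA molecule) of Rgs5, Cspg4, Kcnj8, Abcc9 and Higd1b with at least 2 of these genes detected, had no UMI of the endothelial genes Cdh5 and Tie1, and had fewer than 10 UMIs of the germ cell genes Dppa5a, Pou5f1, Ddx4 and Dazl. The rule chose 166 of the 83513 cells that passed the quality filter, from 103730 barcodes.

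The study asked what the splice isoforms of the transcription factor Wt1 do in gonad development. Gonads of E12.0 embryos (23 ± 3 tail somites), dissected free of mesonephros and dissociated with trypsin, were profiled for XX and XY wild type (WT) embryos, XX and XY embryos homozygous for an allele that cannot make the isoform lacking the amino acids KTS (-KTS KO), and XX and XY embryos homozygous for the Frasier allele, which cannot make the isoform that holds them (+KTS KO). Each of the 6 groups had 2 libraries, and all animals were of the mixed background B6CBAF1/JRj. Gonads of several embryos were pooled for each -KTS KO library, and both alleles are constitutive. Libraries held 108111924 to 147968666 UMIs over all barcodes, and 8750 to 867622 UMIs over the chosen cells. Between 1 and 32 cells were chosen per library, so several libraries rest on very few molecules and the text gives every library's value for the genes that matter. Of the 83513 kept cells, 1722 carried a barcode also kept in another library, as did 2 of the 166 chosen cells, and 0 barcodes were shared between chosen cells.

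Mural cells wrap capillaries and larger vessels and share a basement membrane with the endothelium. Endothelial PDGF-B recruits them through the receptor Pdgfrb, and Notch3 signalling with its target Heyl maintains them. In the fetal gonad, blood vessels grow in from the mesonephros, and the arrangement of vessels differs between the testis and the ovary. Kcnj8 and Abcc9 encode the pore and the regulatory subunit of the ATP-sensitive potassium channel of pericytes and vascular smooth muscle, Rgs5 encodes a GTPase activator that dampens G protein signalling, and Cspg4 encodes the proteoglycan NG2.

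The 5 genes of the rule were not equal contributors. In the chosen cells Rgs5 gave 641 UMIs, Kcnj8 448, Abcc9 116, Cspg4 115 and Higd1b none. Rgs5 was detected in 154 of 166 cells, Kcnj8 in 111, Cspg4 in 85 and Abcc9 in 64. Because these genes chose the cells, their levels are described here and not tested. In WT the 59 chosen cells held 225 Rgs5, 116 Kcnj8, 50 Cspg4 and 32 Abcc9 UMIs. The 84 chosen cells of the +KTS KO held 304 Rgs5, 326 Kcnj8, 43 Cspg4 and 84 Abcc9 UMIs. The 23 chosen cells of the -KTS KO held 112 Rgs5 and 22 Cspg4 UMIs, but only 6 of Kcnj8 and 0 of Abcc9. Accordingly, 80 of 84 +KTS KO cells and 35 of 59 WT cells carried Kcnj8 or Abcc9, whereas 18 of 23 -KTS KO cells were chosen by Rgs5 with Cspg4 alone. In WT 24 cells were of that Rgs5 with Cspg4 kind, 15 of them in XY WT replicate 2.

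The genes of the potassium channel lie next to each other. Kcnj8 (ENSMUSG00000030247) runs from chr6:142564837-142571614 on the minus strand of GRCm38, and Abcc9 (ENSMUSG00000030249) from chr6:142587862-142702315 on the same strand, with 16247 bases and 0 protein-coding genes between them. Rgs5 (ENSMUSG00000026678) lies at chr1:169655501-169695813 and Cspg4 (ENSMUSG00000032911) at chr9:56865033-56899870, both on the plus strand. The stretch from 250 to 51 bases before the RefSeq start of each channel gene is shown, since the pair is followed below in mural and in endothelial cells (RefSeq, GRCm38.p6, minus strand, read 5′ to 3′). Capitals mark a match to the core letters TGGGAA of an RBPJ site, the DNA-binding partner of Notch, searched on both strands.
Kcnj8, chr6:142571665-142571864: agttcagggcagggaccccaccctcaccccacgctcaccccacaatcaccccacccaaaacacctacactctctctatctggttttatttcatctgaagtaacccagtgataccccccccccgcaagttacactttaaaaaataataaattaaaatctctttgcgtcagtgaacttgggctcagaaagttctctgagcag
Abcc9, chr6:142702325-142702524: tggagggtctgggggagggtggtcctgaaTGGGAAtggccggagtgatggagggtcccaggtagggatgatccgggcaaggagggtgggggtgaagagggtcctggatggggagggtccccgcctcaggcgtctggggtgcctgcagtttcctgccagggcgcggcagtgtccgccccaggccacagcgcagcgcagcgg
The Abcc9 stretch held 1 match, 221 bases before the start, and the Kcnj8 stretch none. Neither held the forkhead letters TGTTTAC on either strand. Over the same stretch of 32851 promoters, 17.9% held TGGGAA and 2.58% held TGTTTAC, so a match of this kind is common and is given only as a description of the sequence.

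The threshold cut through a continuum. Of the chosen cells, 46 stood exactly at 5 UMIs of the rule's genes (16 WT, 8 -KTS KO and 22 +KTS KO), and 98 cells at 4 UMIs met every other condition (40, 33 and 25). Cells with 8 or more UMIs numbered 17 in WT, 3 in the -KTS KO and 45 in the +KTS KO, and the highest totals were 20, 9 and 31 UMIs. Chosen cells were larger than the rest, with a median of 23386 UMIs against 13832 in all kept cells, and 21 of 166 (12.7%) were among the barcodes of highest doublet score, against 5.79% of kept cells. Whether doublets account for a part of them was not tested.

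To ask whether Wt1 isoforms change how many perivascular cells a gonad holds, chosen cells were counted per library. They made up 0.0987% and 0.332% of kept cells in XX WT (7 and 24 cells) and 0.0664% and 0.332% in XY WT (6 and 22 cells). In the -KTS KO the shares were 0.119% and 0.0160% in XX (6 and 1 cells) and 0.0652% and 0.206% in XY (4 and 12 cells). In the +KTS KO they were 0.251% and 0.304% in XX (24 and 15 cells) and 0.171% and 0.392% in XY (13 and 32 cells). Replicates of the same group differed by up to several fold, and all 3 genotypes overlapped. The mean share was 0.207% ± 0.145 (SD, n = 4) in WT, 0.102% ± 0.0815 (SD, n = 4) in the -KTS KO and 0.279% ± 0.0930 (SD, n = 4) in the +KTS KO.

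No difference in share passed its test. The -KTS KO differed from WT with p = 0.257 (two-sided exact permutation test over 4 against 4 libraries, Benjamini-Hochberg adjusted p = 0.514 over 6 comparisons). The +KTS KO differed from WT with an exact permutation p = 0.457 (adjusted 0.686), and the mutants differed from each other with an exact permutation p = 0.0571 (adjusted 0.343). The 6 XY and 6 XX libraries gave 0.205% ± 0.135 and 0.187% ± 0.127, with an exact permutation p = 0.797. Set against endothelial cells (at least 3 UMIs of Cdh5 and Tie1, 1678 cells), chosen cells numbered 7.92 ± 4.85 per 100 in WT, 8.76 ± 7.16 in the -KTS KO and 13.5 ± 3.31 in the +KTS KO (SD, n = 4 each), with exact permutation p values of 0.857 and 0.143 against WT. These counts depended on the rule. With Rgs5 left out of the rule, at least 3 UMIs of its other genes were asked for in place of 5. This chose 28 WT, 3 -KTS KO and 70 +KTS KO cells. The -KTS KO share then lay below that of WT in 4 of 4 libraries (0.0133% against 0.0956%, exact permutation p = 0.0286, the smallest value this design allows, adjusted p = 0.0857). With Rgs5 kept and at least 3 instead of 5 UMIs, 173, 139 and 170 cells were chosen and the direction of all 3 genotype differences in share turned.

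**Figure D1:**
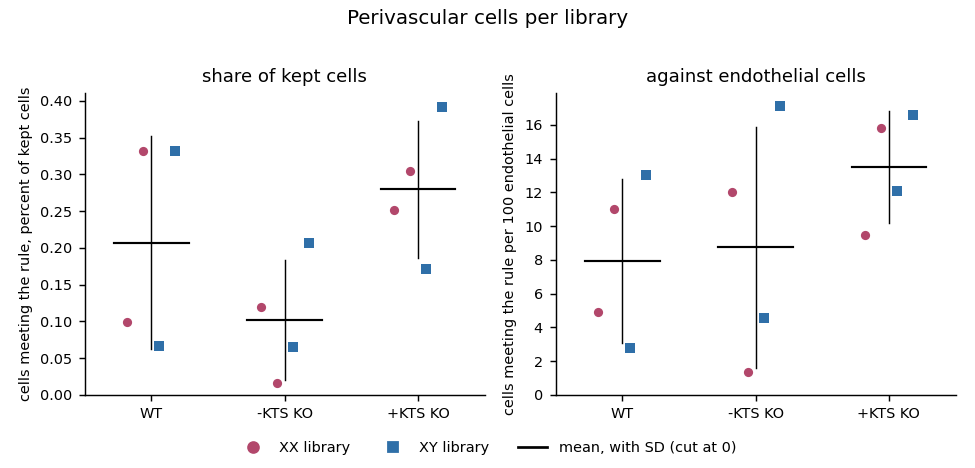
Chosen cells in each of the 12 libraries, as a percent of kept cells (left) and per 100 endothelial cells (right), for WT, -KTS KO and +KTS KO. Circles are XX and squares XY libraries, line and bar the mean and SD of 4 libraries, cut at 0; the genotypes overlap, with WT libraries from 0.0664% to 0.332%.

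The label was then checked with mural genes that the rule had not used. The 34 genes of the mural list summed to 1087 to 2022 CPM (UMIs per 1000000 UMIs of the summed cells) in WT, 1509 to 1751 CPM in the +KTS KO and 601 to 1143 CPM in the -KTS KO libraries. In the kept cells outside the set the same sum was 351 to 496, 303 to 410 and 460 to 552 CPM, so that the chosen cells of each genotype lay above the cells around them. In the chosen -KTS KO cells 14 of the 34 genes had no UMI, against 6 in WT and 4 in the +KTS KO. Pdgfrb, the PDGF-B receptor, stood at 139, 104, 75.2 and 59.9 CPM in the WT libraries (XX replicates 1 and 2, then XY replicates 1 and 2) and at 181, 147, 161 and 111 CPM in the +KTS KO libraries, in the same order. In kept cells outside the set Pdgfrb was at 2.78 to 6.03 CPM in WT and 4.93 to 8.94 CPM in the +KTS KO. In the -KTS KO libraries the chosen cells held 8.24, 0, 6.94 and 13.1 CPM, close to the 3.98 to 8.63 CPM of the cells around them. The -KTS KO libraries lay below every WT and +KTS KO library.

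The forkhead factor Foxs1, a marker of mural cells, gave 28.9, 32.8, 75.2 and 33.1 CPM in WT, 80.3, 43.4, 46.1 and 57.6 CPM in the +KTS KO and 0 in 4 of 4 -KTS KO libraries. Heyl, the Notch target, gave 69.3, 47.8, 16.7 and 12.6 CPM in WT, 43.8, 53.7, 52.7 and 45.0 CPM in the +KTS KO and again 0 in 4 of 4 -KTS KO libraries. Ebf1, a transcription factor of pericytes, gave 179, 113, 159 and 66.2 CPM in WT and 105 to 169 CPM in the +KTS KO, and was above 0 in 1 -KTS KO library, at 8.72 CPM. It is not particular to mural cells, since 65.4 to 68.6% of endothelial cells of each genotype also had an Ebf1 UMI. With 3 counts over the whole genotype as the floor (5.96 CPM), Foxs1 was at least 5.97-fold higher and Heyl at least 5.76-fold higher in WT than in the -KTS KO. The bounds against the +KTS KO were 9.83-fold and 8.0-fold. Cell by cell, Pdgfrb, Foxs1, Heyl, Ebf1 and Gucy1b1 together had no UMI in 7 of 59 WT, 4 of 84 +KTS KO and 16 of 23 -KTS KO cells, with medians of 9, 9 and 0 UMIs and with 2 UMIs as the most in any -KTS KO cell. The median depth of these cells was 23995, 23307 and 21002 UMIs. Thinned to 5000 UMIs a cell, Pdgfrb was seen in 32.2% of WT, 44.0% of +KTS KO and 4.35% of -KTS KO cells, against 0.415%, 0.759% and 0.171% of germ cells, which should lack it. These 5 genes were picked after their values were seen, and not every mural gene was low. Gucy1a1, the partner subunit of Gucy1b1, stood at 114 to 327 CPM in the chosen -KTS KO cells and 134 to 213 CPM in those of WT, with 179 to 192 CPM in the -KTS KO cells around, and Notch3 at 0 to 27.8 and 8.36 to 13.7 CPM. The chosen cells of the -KTS KO thus met the label only in part, without Foxs1 and Heyl and with little Pdgfrb, and they are called below the chosen -KTS KO cells.

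Other cell types were not absent from the set. The summed level of 9 gonadal somatic genes ranged from 125 to 606 CPM in WT, 145 to 513 CPM in the +KTS KO and 500 to 750 CPM in the -KTS KO libraries. The 13 interstitial genes summed to 794 to 1282, 909 to 1355 and 1779 to 2533 CPM, and 16 supporting cell genes to 25.1 to 653, 114 to 596 and 457 to 1269 CPM, in the same order. Of the 16 supporting cell genes 16, 16 and 6 had a UMI. In the kept cells outside the set the gonadal somatic sum was 483 to 923, 778 to 992 and 582 to 799 CPM. The interstitial sum there was 492 to 911, 684 to 875 and 719 to 1408 CPM, and the supporting sum 1390 to 1755, 944 to 1463 and 509 to 796 CPM. The 16 endothelial genes other than those of the rule summed to 287 to 401, 211 to 365 and 65.9 to 229 CPM. In the kept cells outside the set this sum was 321 to 505, 286 to 366 and 245 to 357 CPM. Of these genes 12, 14 and 9 had a UMI, Ramp2, Emcn, Egfl7 and Plvap among them, with Pecam1 at 0 in both mutants and Tek at 0 in WT and the -KTS KO. Immune genes summed to 3.15 to 40.4 CPM in WT, beside 11.6 to 20.7 CPM outside the set. In the +KTS KO they summed to 0 to 6.58 CPM and in the -KTS KO to 0, with Ptprc at 0 in every library. The part of these lists in the differences that follow was not tested.

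Genes outside the rule were compared with the edgeR quasi-likelihood test on UMIs summed over the chosen cells of each library. Of 5112 genes tested, 257 (5.03%) differed between the -KTS KO and WT, with 93 higher (1.82%) and 164 lower (3.21%) in the -KTS KO. Against the +KTS KO, 353 genes (6.91%) differed, 157 higher (3.07%) and 196 lower (3.83%). This fit kept all 12 libraries, since no XX -KTS KO library held 10 cells, and 1 library carried much of it. Without XX -KTS KO replicate 1, which leaves a single XX cell for the genotype and assumes it to vary like the other groups, 44 genes differed from WT and 55 from the +KTS KO. DESeq2 called 138 and 185 genes. Of the genes named below, Heyl, Ndufa4l2, Cox4i2, Nes, Myl9, Col6a1, Wnt4, Rspo1, Wnt6, Junb, Ccnd1, Cdkn1c, Foxc1, Pcna, Emcn and Ramp2 did not pass against WT by DESeq2, nor did Wt1, Itga1 and Foxc2 against the +KTS KO.

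Among the mural genes, 14 of 34 had enough counts to be tested. Of these, Foxs1, Heyl, Ndufa4l2, Ebf1, Gucy1b1 and Cox4i2 had 0, 0, 1, 2, 3 and 3 UMIs in the chosen -KTS KO cells and so were tested only through the counts of WT and the +KTS KO. A gene of that kind could only be lower in the -KTS KO, and the number of calls in each direction is therefore not read as a result about the list. Among the 14, 9 genes were called lower than in WT, these 6 included, and 1 higher. Pdgfrb fell by 3.18 ± 0.56 (log2 difference ± SE, adjusted p = 0.000632, edgeR quasi-likelihood test, Benjamini-Hochberg adjusted). It had 3 UMIs in the -KTS KO cells with Kcnj8 or Abcc9 and 2 in the others. So it also passed the count filter only through WT and the +KTS KO and could only be lower. Foxs1 and Heyl, at 0 in the -KTS KO, are given by the bounds above (at least 5.97-fold and 5.76-fold higher in WT) and not by a fitted change. Ebf1 fell by 6.35 on the fitted log2 scale, a value that depends on the prior count, as do the next 3. Gucy1b1, a subunit of the nitric oxide receptor guanylate cyclase, fell by 5.12, and the pericyte genes Ndufa4l2 and Cox4i2, subunits and relatives of respiratory complexes, fell by 5.14 and 4.46. Tbx2 fell by 2.30 and Nes, the intermediate filament nestin, fell by 1.74. The gene that rose was the forkhead factor Foxc1, by 2.63 on the log2 scale. Against the +KTS KO 8 of the same 14 genes were called lower, the same 6 included, and none higher. Without XX -KTS KO replicate 1, Ebf1 still fell against WT, by 6.39, and the other 8 mural genes no longer passed. Ebf1, Gucy1b1 and Pdgfrb still passed against the +KTS KO without that library.

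The contractile and matrix genes moved less evenly. Of 8 smooth muscle genes tested, Acta2 (smooth muscle actin) and Des (desmin) fell in the -KTS KO against WT, by 6.21 and 2.41, and Myl9, a myosin light chain, rose by 1.26. Acta2 had 2 UMIs in the chosen -KTS KO cells. It was tested only through the other genotypes, could only be called lower, and its fitted value depends on the prior count. Acta2 gave 121, 186, 125 and 45.7 CPM in WT and was at 0 in 3 of 4 -KTS KO libraries, with 8.72 CPM in the other. Of 9 basement membrane genes tested, the type IV collagen genes Col4a2 and Col4a1 and the nidogen gene Nid1 were lower, by 4.16, 3.32 and 3.32. Col4a2 and Nid1 had 3 and 2 UMIs in the chosen -KTS KO cells. They were tested only through the other genotypes and could only be called lower, so the direction of the calls is not read as a result about the list. Col4a1 gave 445, 254, 217 and 176 CPM in WT and 41.2, 229, 13.9 and 8.72 CPM in the -KTS KO, where the second value is 2 molecules in the single cell of that library. Among 13 matrix genes Fn1 fell by 2.41 and Col1a1 rose by 1.89. Col6a1 was also called lower, but it had no UMI in the chosen -KTS KO cells and was tested only through the other genotypes. With the floor of 3 counts it was at least 4.35-fold higher in WT and at least 7.01-fold higher in the +KTS KO. Against the +KTS KO 7 of the 13 were called lower (Col6a1, Col6a2, Mgp, Fn1, Bgn, Col3a1 and Col1a2) and 0 higher, with 0 UMIs of Col6a1 and 1 of Col6a2 in the -KTS KO. Of these 7, Col3a1 alone still passed without XX -KTS KO replicate 1, and Col6a2, Mgp and Fn1 did not pass by DESeq2. Of 4 endothelial genes tested, Emcn and Ramp2 fell, by 3.14 and 1.60. Emcn had 1 UMI in the -KTS KO cells with Kcnj8 or Abcc9 and 1 in the others, so it too could only be called lower. Without XX -KTS KO replicate 1, Col4a1 and Col4a2 still fell against WT and the others of these genes did not pass against it.

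**Figure D2:**
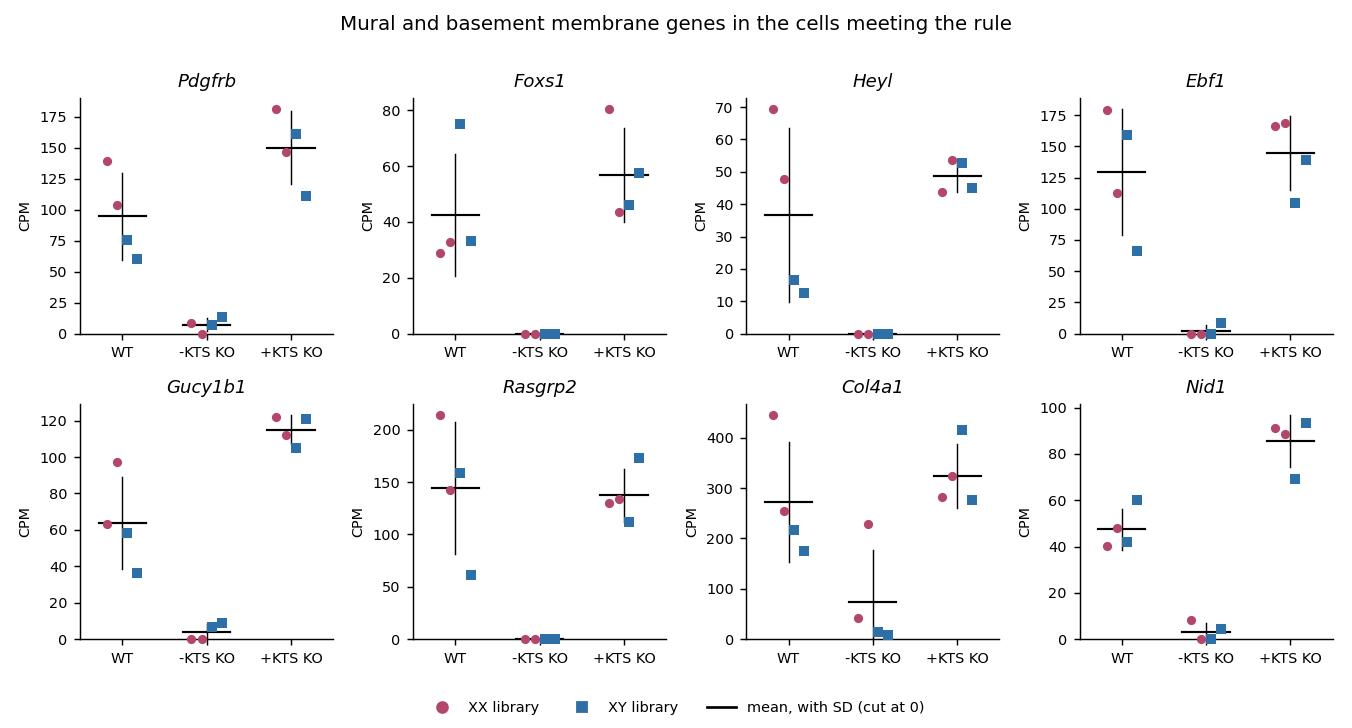
CPM of 8 genes in the chosen cells, 1 point per library (circles XX, squares XY, line and bar the mean and SD of 4 libraries, cut at 0, linear axes from 0). In Foxs1, Heyl and Rasgrp2 the 4 -KTS KO libraries sit at 0, and in Pdgfrb, Ebf1, Gucy1b1 and Nid1 they sit below every WT and +KTS KO library; Col4a1 has 1 -KTS KO point at 229 CPM that comes from 1 cell.

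The largest falls against WT, among genes whose libraries did not overlap, were Rasgrp2, Igfbp7, Lbhd2, Foxs1, Ebf1, Heyl, Acta2, Gatm, Slc29a1 and Tcim. In the chosen -KTS KO cells Rasgrp2, Lbhd2, Foxs1 and Heyl had 0 UMIs, Igfbp7, Gatm and Slc29a1 had 1, and Ebf1 and Acta2 had 2. These genes were tested only through the counts of the other genotypes and could only be called lower. Rasgrp2, a guanine nucleotide exchange factor for Rap1, gave 214, 142, 159 and 61.4 CPM in WT and 0 in 4 of 4 -KTS KO libraries, which makes it at least 20.1-fold higher in WT. Igfbp7, a secreted binding protein, gave 560, 238, 460 and 134 CPM in WT and 0, 0, 0 and 4.36 CPM in the -KTS KO. It fell by 8.27 on the fitted log2 scale, a value that depends on the prior count. Igfbp7 was also low outside the set, at 0.981 to 2.16 CPM in -KTS KO cells and 13.4 to 83.3 CPM in WT. Among the largest falls against the +KTS KO were Rasgrp2, Acta2, Igfbp7, Foxs1, Heyl, Col6a1, Ebf1, Itga1 and Foxc2. Rasgrp2, Igfbp7 and Ebf1 passed against both genotypes also without XX -KTS KO replicate 1. With so few UMIs in the -KTS KO they could not have risen, so this adds no support.

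The largest rises in the chosen -KTS KO cells against WT were Fras1, Gdf6, Lbx2, Rmst, Gm21814, Ecm1, Capn6, Cd55, Fxyd1 and Atp8a1. Fras1, Gdf6, Lbx2, Rmst and Gm21814 had too few UMIs in WT and the +KTS KO to pass the count filter without the -KTS KO. Gdf6, for example, had 2 UMIs in WT and 1 in the +KTS KO. Such genes could only be called higher, so their calls are not read as support. In the cells with Kcnj8 or Abcc9 the fitted differences of Atp8a1 (−0.99) and Fxyd1 (−0.30) had the opposite sign. Pooled over those cells, both genes stayed higher in the -KTS KO (43.9 and 54.9 CPM) than in WT (14.4 and 7.18 CPM). The fitted sign is therefore not read as a reversal. Cd55, a complement regulator, gave 132, 229, 222 and 283 CPM in the -KTS KO, 11.6, 10.9, 25.1 and 58.3 CPM in WT and 0 to 3.29 CPM in the +KTS KO. The long non-coding RNA Rmst gave 140, 114, 146 and 174 CPM in the -KTS KO and 0 to 18.9 CPM in WT, a rise of 3.77 ± 0.53 (log2, adjusted p = 4.51e-05, edgeR quasi-likelihood test, Benjamini-Hochberg adjusted). The homeobox gene Lbx2 gave 140, 457, 139 and 69.8 CPM against 34.7, 13.7, 8.36 and 1.58 CPM in WT, and rose by 4.11 ± 0.60. Fras1, an extracellular matrix protein of epithelia, gave 34.7 to 114 CPM against 0 to 12.3 CPM. Some of these genes also differed outside the set. In the remaining kept cells Lbx2 was at 49.0 to 81.0 CPM in the -KTS KO and 5.16 to 21.0 CPM in WT, and Cd55 at 54.5 to 115 and 10.9 to 32.1 CPM, whereas Rmst overlapped there (34.7 to 59.0 and 3.32 to 35.8 CPM).

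Some genes of the gonadal somatic lineages rose with them, while others had no UMI in the chosen -KTS KO cells. Wnt4, a signal of the early ovary and of gonadal progenitors, gave 807, 114, 527 and 406 CPM in the -KTS KO and 0, 227, 0 and 37.8 CPM in WT, and rose by 3.12 ± 0.54. Rspo1, which amplifies Wnt signals, rose by 2.68 ± 0.52, and Dlk1, a transmembrane protein of interstitial progenitors, rose by 2.00 ± 0.29 with 800 to 1129 CPM against 83.6 to 322 CPM. Outside the set Dlk1 stood at 268 to 603 CPM in the -KTS KO and 104 to 216 CPM in WT. Wnt6, another gene of the supporting cell list, was tested only through the other genotypes and could only be called lower. It fell by 5.66 on the fitted scale, with 1 UMI in the -KTS KO. Fst, Bmp2, Cst9 and Runx1 of the same list and Nr5a1 of the gonadal somatic list had 0 UMIs there. With the floor of 3 counts they were at least 6.88, 4.96, 4.75, 2.63 and 3.84-fold higher in WT. Wt1 itself gave 80.9, 146, 33.4 and 143 CPM in WT, 362, 0, 264 and 231 CPM in the -KTS KO and 85.7, 120, 207 and 50.7 CPM in the +KTS KO. It rose by 1.31 against the +KTS KO (adjusted p = 0.0357, edgeR) and stood 1.29 above WT without passing (adjusted p = 0.0536). Counts per gene do not tell the isoforms apart and so do not check the alleles. Without XX -KTS KO replicate 1, Wnt4, Rspo1, Dlk1 and Wt1 no longer passed and Lbx2 still rose, by 4.25.

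Cell cycle and immediate early genes completed the lists. Of 15 proliferation genes tested, Ccnd2, Ccnd1, Cdk1 and Pcna fell in the -KTS KO against WT, by 2.03, 1.90, 1.31 and 1.26, and the cell cycle inhibitor Cdkn1c rose by 1.05. Of 13 immediate early genes, Junb and Ier2 fell, by 4.86 and 1.70, and of 9 genes of the TGF-beta list Id2 rose by 1.45. Of 4 PDGF and angiopoietin genes and 3 Notch genes tested, Pdgfrb and Heyl were the calls. Of the genes named against WT that were refitted without XX -KTS KO replicate 1, Ebf1, Col4a1, Col4a2, Rasgrp2, Igfbp7 and Lbx2 still passed, and Foxc1, Myl9, Rspo1 and Wt1 turned their sign. Ebf1, Col4a2, Rasgrp2 and Igfbp7 had 2, 3, 0 and 1 UMIs in the chosen -KTS KO cells and could only be called lower, so their calls are not read as support. In the fit of all 12 libraries Lbx2 passed the count filter only through the -KTS KO, so its rise is not read as support either.

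Other single libraries cost fewer calls of this comparison. Without XY -KTS KO replicate 2 the genes Cox4i2, Nes, Col6a1, Junb, Cdkn1c, Capn6, Atp8a1, Foxc1, Cdk1, Pcna and Ramp2 no longer passed. Without XY WT replicate 2 these were Col6a1, Wnt6, Ccnd1, Cdkn1c, Gdf6, Foxc1 and Fxyd1, and without XX -KTS KO replicate 2 they were Col6a1, Junb, Gdf6, Atp8a1 and Ier2. The calls of Col6a1, Foxc1 and Pcna were lost without XX WT replicate 2, those of Myl9, Ccnd1 and Cdkn1c without XX WT replicate 1 or XY -KTS KO replicate 1, and those of Nes and Cdkn1c without XY WT replicate 1. Wt1 passed against WT when any 1 of several libraries was left out. Against the +KTS KO, Itga1 was lost without XX -KTS KO replicate 2, XY -KTS KO replicate 2 or XX +KTS KO replicate 2, Foxc2 without XY -KTS KO replicate 2, and Wt1 without XX +KTS KO replicate 1 or XY +KTS KO replicate 2.

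**Figure D3:**
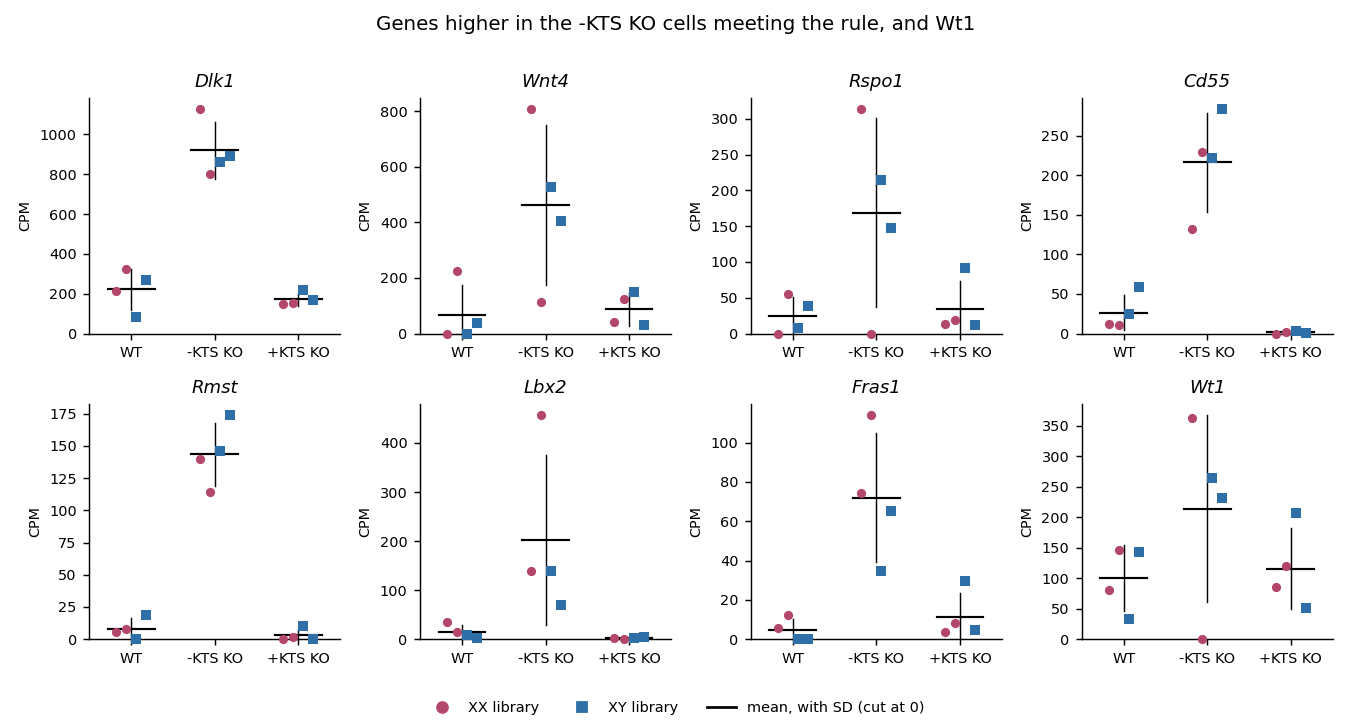
CPM in the chosen cells for 7 genes that were higher in the -KTS KO than in WT, and for Wt1, 1 point per library (circles XX, squares XY, line and bar the mean and SD of 4 libraries, cut at 0). For Cd55, Rmst, Lbx2 and Fras1 every -KTS KO library is above every WT library; 1 -KTS KO library, with a single cell, is at 0 for Rspo1 and Wt1.

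The kinds of chosen cells can be set side by side, since 24 WT and 18 -KTS KO cells were chosen through Rgs5 with Cspg4 and without the channel genes. In those WT cells, pooled, Pdgfrb was at 42.4 CPM, Foxs1 at 17.5, Heyl at 10.2, Ebf1 at 20.5 and Rasgrp2 at 57.0 CPM. The matching -KTS KO cells had 4.85, 0, 0, 4.85 and 0 CPM of these genes. WT cells with Kcnj8 or Abcc9 had 121, 48.2, 51.3, 165 and 164 CPM, and those of the +KTS KO had 148, 61.7, 50.2, 153 and 149 CPM. The 5 -KTS KO cells with Kcnj8 had 32.9 CPM of Pdgfrb and 0 of the other 4 genes. These pooled values are descriptions, because the kinds are defined by the rule's own genes.

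Cells were also gathered by other mural genes. A gate added after the values were seen took cells with at least 2 UMIs of Pdgfrb, at least 5 of 14 other mural genes detected, no Cdh5 or Tie1 and fewer than 10 germ cell UMIs. It held 15, 55, 13 and 24 WT cells (107), 15, 5, 5 and 7 -KTS KO cells (32) and 43, 54, 37 and 62 +KTS KO cells (196). Kcnj8 or Abcc9 was detected in 48 of the 107 WT cells (44.9%) and in 86 of the 196 +KTS KO cells (43.9%). In the -KTS KO it was detected in 0 of 32 cells pooled from 4 libraries, which allows a share of cells with a UMI of up to 9.38% (3 counts). By library the share was 33.3, 54.5, 23.1 and 41.7% in WT, 55.8, 18.5, 48.6 and 54.8% in the +KTS KO and 0 in 4 of 4 -KTS KO libraries. This limit covers counting error only and not the spread between libraries, which in the +KTS KO was wide.

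The gated cells had median depths of 21984, 24380 and 21292 UMIs for WT, -KTS KO and +KTS KO. Thinned to 5000 UMIs, 23.4% of WT, 0% of -KTS KO and 21.0% of +KTS KO cells had the channel genes, against 0.219%, 0.214% and 0.552% of germ cells (median depths 28291, 42160 and 38948 UMIs, unthinned shares 1.76%, 1.51% and 4.10%). Rgs5 was found in 69.2%, 68.8% and 65.3% of gated cells, and in 41.1%, 12.5% and 30.8% once thinned. Cspg4 was found in 18.7%, 3.12% and 17.3%, and in 6.54%, 0% and 3.59% once thinned. Shares of other mural genes follow in the same order. Pdgfrb, which every gated cell had by construction, was seen in 65.4%, 37.5% and 61.5% once thinned. Acta2 was found in 59.8%, 25.0% and 64.3%, and in 36.4%, 12.5% and 46.2% once thinned. Ebf1 was found in 74.8%, 56.2% and 55.6%, so the -KTS KO was not below the +KTS KO, and in 44.9%, 12.5% and 31.3% once thinned. With at least 4 other mural genes the channel genes were in 55 of 158, 4 of 75 and 112 of 329 cells, and with at least 6 in 35 of 75, 0 of 9 and 61 of 112. None of the 32 gated -KTS KO cells was among the 23 chosen by the rule, whereas 30 of the 107 WT and 53 of the 196 +KTS KO cells were. Heyl was detected in 66.4% of gated WT, 9.38% of -KTS KO and 49.0% of +KTS KO cells, and Foxs1 in 71.0%, 40.6% and 73.0%. Since Heyl and Foxs1 are among the 14 genes of the gate, and the gate was set after the values were seen, no test is given.

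In the -KTS KO the channel genes were found in another cell type. Endothelial cells, chosen by Cdh5 and Tie1, gave Kcnj8 at 0.654, 0.412, 0.900 and 0 CPM in WT, 0.786, 0.677, 0.713 and 0.812 CPM in the +KTS KO and 9.78, 11.3, 23.9 and 58.6 CPM in the -KTS KO. Abcc9 gave 5.24, 5.15, 4.05 and 3.66 CPM in WT, 6.68, 14.2, 7.13 and 8.93 CPM in the +KTS KO and 17.4, 21.9, 19.9 and 66.1 CPM in the -KTS KO. For both genes the -KTS KO libraries lay above all others, and XY -KTS KO replicate 2 was the highest. Kcnj8 rose by 5.36 ± 0.47 (log2 difference ± SE, adjusted p = 9.21e-05) and Abcc9 by 2.77 ± 0.36 (adjusted p = 0.00132) against WT by edgeR's quasi-likelihood test (Benjamini-Hochberg adjusted) on summed endothelial UMIs, where 363 of 11038 genes (3.29%) differed, 204 higher (1.85%) and 159 lower (1.44%). Against the +KTS KO Kcnj8 and Abcc9 rose by 4.77 and 1.74, with 536 genes called (259 higher, 2.35%, and 277 lower, 2.51%, together 4.86%). Neither gene passed between the +KTS KO and WT (log2 differences of 0.59 ± 0.72 and 1.03 ± 0.38), among 21 genes called (0.190%), 6 higher (0.0544%) and 15 lower (0.136%). Kcnj8 and Abcc9 kept their calls against WT with any 1 library left out. The count of genes against WT fell to between 118 and 207 without any 1 of the WT libraries, the XX -KTS KO libraries or XY -KTS KO replicate 2, and rose to 587 and 589 without XY +KTS KO replicate 1 or 2. The count between the +KTS KO and WT lay between 1 and 62 with 1 library left out.

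Single endothelial cells carried both subunits. Kcnj8 and Abcc9 were found together in 46 of 283 -KTS KO endothelial cells (16.3%), in 3 of 746 WT and in 5 of 649 +KTS KO cells. By library the -KTS KO shares were 8.0, 6.67, 9.09 and 41.4%. Thinned to 5000 UMIs, either gene was seen in 20.3% of -KTS KO endothelial cells, 3.00% of WT and 4.72% of +KTS KO cells, at median depths of 23356, 17087 and 19686 UMIs. The rule left such cells out, and 28 -KTS KO cells met every condition except the absence of Cdh5 and Tie1, against 1 WT and 0 +KTS KO cells. By library they numbered 2, 3, 5 and 18, so XY -KTS KO replicate 2 held most of them and 10 remained without it. The 28 cells held 107 Kcnj8 and 100 Abcc9 UMIs but 2 of Rgs5 and 1 of Cspg4, with a median of 23 UMIs of Cdh5 and Tie1. Without endothelial cells of 5 or more UMIs of the rule's genes, Kcnj8 still stood at 5.85, 8.96, 7.71 and 21.7 CPM in the -KTS KO.

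Of the other genes of the pathways, 3 of 10 Notch genes tested rose in -KTS KO endothelial cells and none fell. These were the ligand Dll4 (1.13 ± 0.19), the target Hey1 (1.02 ± 0.21) and the feedback inhibitor Nrarp (0.54 ± 0.13), all log2 differences against WT. Gja4, a connexin of arterial endothelium that is also on the mural list, rose by 1.39 ± 0.26. Dll4 passed with any 1 library left out. Hey1 did not pass without XX WT replicate 1 or 2, XY WT replicate 1 or XX -KTS KO replicate 1 or 2, and Gja4 without XX WT replicate 1, XY WT replicate 1 or XX -KTS KO replicate 2. Nrarp passed only when the library left out was XY -KTS KO replicate 1 or XY +KTS KO replicate 1 or 2. Pdgfrb was at most 1.49 CPM in endothelial cells of any library and Rgs5 at most 4.22 CPM.

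**Figure D4:**
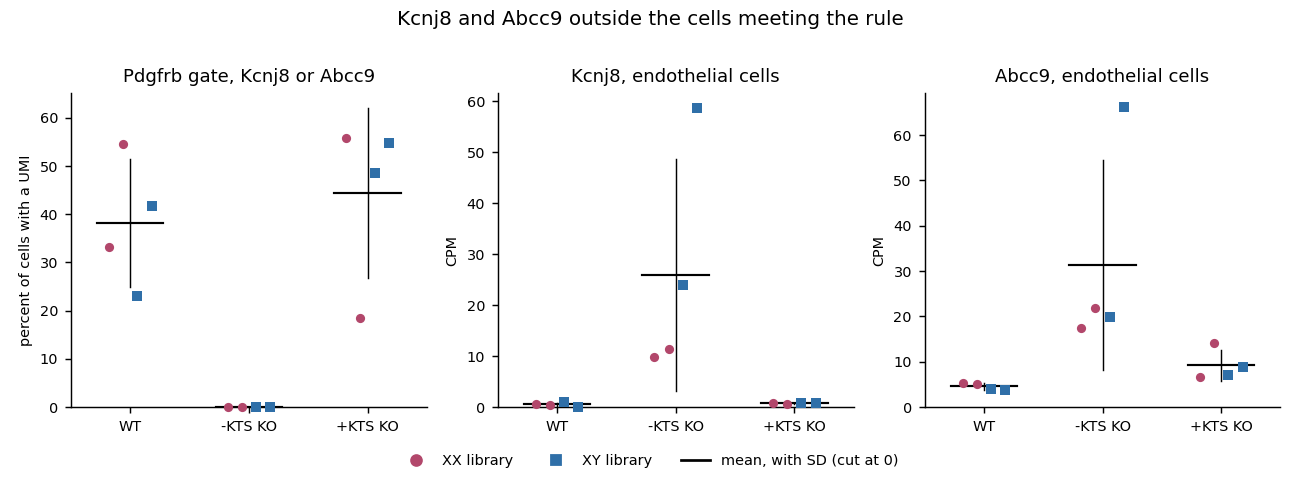
Left, percent of cells with a Kcnj8 or Abcc9 UMI among cells gathered by Pdgfrb and other mural genes; middle and right, Kcnj8 and Abcc9 CPM in endothelial cells, 1 point per library (circles XX, squares XY, line and bar the mean and SD of 4 libraries, cut at 0). The -KTS KO is at 0 in the left panel in 4 of 4 libraries and highest in the other panels, up to 58.6 and 66.1 CPM.

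The +KTS KO was compared with WT in the 7 libraries that held at least 10 chosen cells, which were the 4 of the +KTS KO, XX and XY WT replicate 2 and XY -KTS KO replicate 2. Each WT group had 1 library here, so spread was measured within the +KTS KO pairs alone and WT was assumed to vary likewise. Of 7971 genes tested, 93 (1.17%) differed, 35 higher (0.439%) and 58 lower (0.728%) in the +KTS KO. DESeq2 called 10 genes on the same sums. Of the genes named below that passed here, Ptn, Col3a1, Dkk1, Gatm and Atp1b1 also passed by DESeq2, whereas Foxc1, Acta2, Tagln, Pde3a, Mgp, Col1a1, Foxd1, Lhx9, Gata4, Kitl and Cd55 did not. With all 12 libraries 33 of 5112 genes (0.646%) differed, and without XX +KTS KO replicate 1, XX +KTS KO replicate 2 or XY +KTS KO replicate 1 the count was 58, 45 or 255. The cells compared were not of the same kinds, since 95.2% of +KTS KO and 59.3% of WT chosen cells carried the channel genes. The part of the kinds of cells in this comparison was not tested.

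Few mural genes passed. Of 18 mural genes tested Foxc1 rose by 2.55 ± 0.57 and none fell, and of 7 Notch and 6 PDGF and angiopoietin genes none passed. Foxc1 gave 24.8 to 36.2 CPM in the 4 +KTS KO libraries and 11.6, 8.20, 8.36 and 3.15 CPM in WT. It did not pass with all 12 libraries. With all 12 libraries 0 of 14 mural genes were higher and Tbx2 was lower (−1.76 ± 0.37, adjusted p = 0.0116, edgeR). Of the contractile genes, Acta2 and Tagln passed, with Acta2 at 385, 182, 118 and 552 CPM in the +KTS KO against 121, 186, 125 and 45.7 CPM in WT, groups that overlapped. Acta2 rose by 1.83 ± 0.36 and Tagln, the actin-binding protein transgelin, by 2.34 ± 0.42 (adjusted p = 0.000621 and 0.000132, edgeR quasi-likelihood test, Benjamini-Hochberg adjusted), while the other 8 smooth muscle genes tested did not pass. Without XY +KTS KO replicate 2 Tagln did not pass (1.08), and without XX +KTS KO replicate 1 Acta2 did not. Pde3a, the phosphodiesterase of vascular smooth muscle, rose by 1.90, a call lost without XX +KTS KO replicate 1 or 2.

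Of 16 matrix genes tested Col3a1, Mgp and Col1a1 rose, by 1.38, 1.34 and 1.19. Col3a1 gave 569, 351, 484 and 558 CPM in the +KTS KO and 133, 244, 175 and 154 CPM in WT, with no overlap. Ptn, the growth factor pleiotrophin, gave 1158, 1289, 652 and 1113 CPM against 306, 477, 175 and 261 CPM and rose by 1.60 ± 0.29. Col3a1 and Ptn kept their rise with all 12 libraries, by 1.48 and 1.82. Both genes were also higher outside the set, with Ptn at 129 to 424 CPM in the +KTS KO and 75.6 to 120 CPM in WT. Without XX +KTS KO replicate 1 Col3a1, Mgp and Col1a1 did not pass, and without XX +KTS KO replicate 2 Mgp and Col1a1 did not.

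By size the largest rises in the +KTS KO were Foxd1, Nefm, Eif3j2, Dpysl3, Foxc1, Pde3a, Hist1h4d, Ptn, S100a6 and Hist1h4h. Foxd1, a forkhead factor of kidney stroma and pericyte progenitors, gave 7.30, 39.2, 69.1 and 11.5 CPM in the +KTS KO and 0 in 4 of 4 WT libraries, which makes it at least 13.6-fold higher over a floor of 3 WT counts (1.81 CPM). The largest falls were Dkk1, Gatm, Taf7l, Cd55, Bmp2, Plxnc1, Zdhhc2, Atp1b1, Mical2 and Hmcn1. Gatm, the first enzyme of creatine synthesis, gave 23.1, 91.5, 167 and 26.8 CPM in WT and 0, 0, 6.58 and 2.31 CPM in the +KTS KO, and fell by 5.68 ± 0.72. Gatm fell also with all 12 libraries, by 5.92. Gatm, Dkk1 and Taf7l had 4, 1 and 1 UMIs in the chosen +KTS KO cells. They did not pass the count filter through the +KTS KO and could only be called lower. The calls of Gatm and Dkk1 by DESeq2 and that of Gatm with all 12 libraries share this limit and add no support. Dkk1, a secreted Wnt inhibitor, gave 34.7, 9.56, 16.7 and 180 CPM in WT and at most 2.06 CPM in the +KTS KO. Lhx9 and Gata4, transcription factors of gonadal progenitors, fell by 1.73 and 1.68, and Kitl, the KIT ligand, fell by 2.16, but none of these passed with all 12 libraries. In the cells with the channel genes the fitted difference of Kitl turned its sign (0.19), while its pooled level stayed lower (13.5 against 21.5 CPM in WT). Leaving out XX +KTS KO replicate 1 cost the calls of S100a6, Gata4, Hmcn1 and Plxnc1, XX +KTS KO replicate 2 those of S100a6, Dpysl3, Gata4 and Lhx9, and XY +KTS KO replicate 2 those of Gata4 and Hmcn1.

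**Figure D5:**
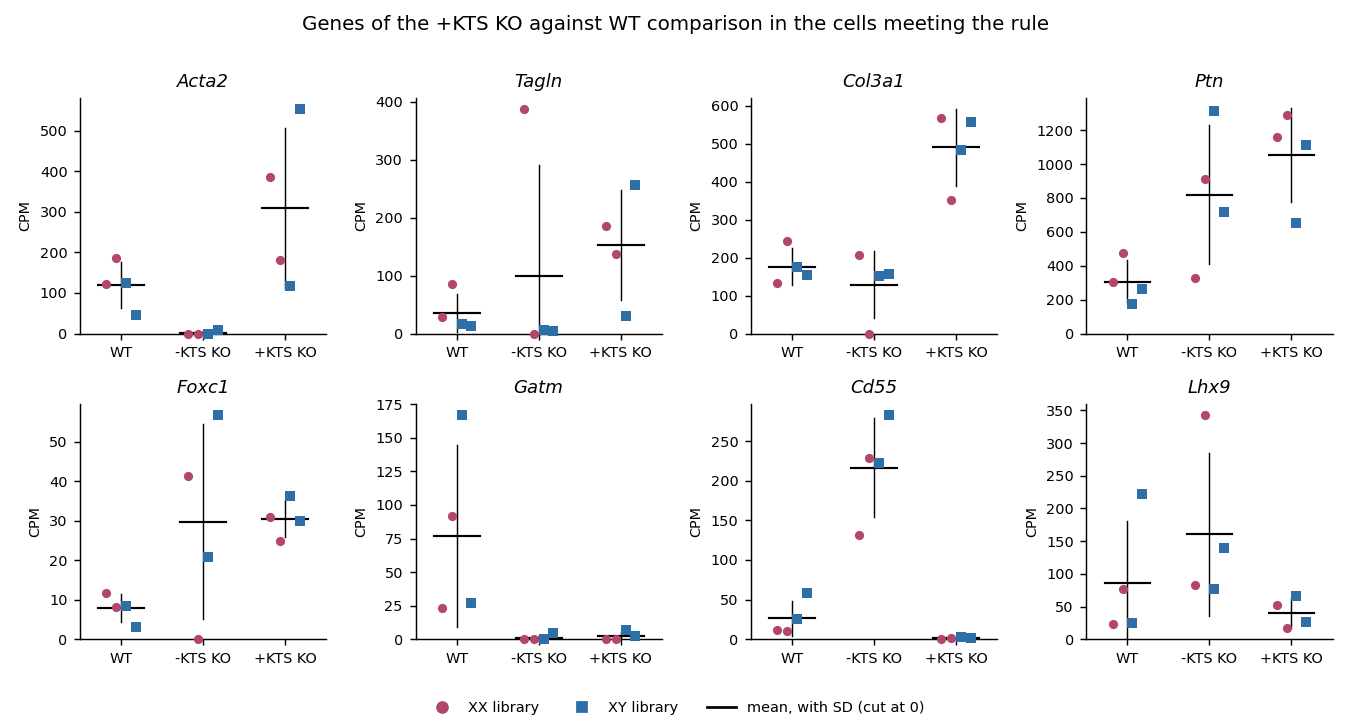
CPM in the chosen cells for 8 genes of the comparison of +KTS KO with WT, 1 point per library (circles XX, squares XY, line and bar the mean and SD of 4 libraries, cut at 0); the -KTS KO is drawn beside them. Col3a1 and Ptn do not overlap between WT and the +KTS KO, Acta2 does, and Gatm and Cd55 are lower in every +KTS KO than in every WT library.

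Sex was compared between XY and XX WT. In the 7 libraries each sex had WT replicate 2 alone, where 20 of 24 chosen cells in XX and 7 of 22 in XY carried Kcnj8 or Abcc9. The part of these kinds of cells in the comparison was not tested. The labels held, since Xist was at 457 to 857 CPM in every XX library and 0 in every XY library, and Ddx3y at 20.8 to 50.4 CPM in every XY library and 0 in every XX library. Of 7681 autosomal genes tested in the 7 libraries, 15 were higher and 11 lower in XY (0.338% in all), from 1 library a side, each assumed to vary like the other groups. With all 12 libraries 4 of 4927 genes differed (0.0812%), 3 higher (0.0609%) and 1 lower (0.0203%) in XY. DESeq2 called 0 genes in the 7 libraries, so these calls depend on the test. The 26 calls became 74 without XY +KTS KO replicate 1 and 77 without XY +KTS KO replicate 2. By size Cbln1, Cck, Lmo1, Dkk1, Mme, Tnni1, Myl7 and Rnf19a were among the rises, beside the X-linked Mid1 and the Y-linked Ddx3y that are outside the autosomal count, and Alx1, Etv2, Slc24a5, Akap12, Postn, Nr2f1 and Rhoj among the falls, beside the X-linked Xist. In WT, Etv2 had 152 UMIs in cells without the channel genes and 14 in cells with them. XX WT replicate 2, at 206 CPM of Etv2, held 4 cells without them. Alx1, a homeobox gene of mesenchyme, gave 40.4 and 72.4 CPM in XX WT and 0 in both XY WT libraries. With all 12 libraries it fell by 7.47 on the fitted log2 scale, a value that depends on the prior count and is not read as a size. Supporting cell genes were among the calls, with Sox9 at 0, 9.56, 8.36 and 89.8 CPM and Fst at 0, 92.9, 0 and 0 CPM over XX and XY WT, each highest in the second library of a sex. Nr2f1, Akap12, Rhoj and Rnf19a did not pass without XX +KTS KO replicate 1 or 2, Myl7 without XX +KTS KO replicate 1, and Cck and Cbln1 without XY -KTS KO replicate 2.

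The response to genotype was also compared between the sexes. For the +KTS KO 19 of 7971 genes (0.238%) differed between XY and XX in the 7 libraries, 11 higher (0.138%) and 8 lower (0.100%) in XY, with 1 WT library a sex, each assumed to vary like the other groups, and 0 of 5112 with all 12, where 110 had an unadjusted p below 0.05. For the -KTS KO no gene of 5112 differed by edgeR or by DESeq2, and 132 had an unadjusted p below 0.05. Alx1 had an interaction value of 7.94, which depends on the prior count, as the gene had no UMI in XY WT. It was detected in the +KTS KO libraries of either sex, at 36.2 to 108 CPM. The 19 genes became 10, 7, 67 and 67 without XX +KTS KO replicates 1 and 2 and XY +KTS KO replicates 1 and 2, and for the -KTS KO the count lay between 0 and 7 with 1 library left out.

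Finally, mural genes were followed in the sum of all kept cells, where fewer cells of a type and less RNA per cell cannot be told apart. Here 3575 of 19131 genes (18.7%) differed between the -KTS KO and WT, 1769 higher (9.25%) and 1806 lower (9.44%). Of 29 mural genes tested 7 fell and 5 rose, with a median of −0.13 beside 0.01 over all genes. Heyl gave 0.723, 1.52, 2.81 and 2.17 CPM in WT and 0.243, 0.413, 0.194 and 0.166 CPM in the -KTS KO, and fell by 2.73 ± 0.31 (adjusted p = 0.000324, edgeR quasi-likelihood test, Benjamini-Hochberg adjusted). Foxs1, Plxdc1 and Ano1 fell by 2.05, 4.12 and 1.85, and Epas1, Anpep and Ebf1 by 1.01, 1.00 and 0.80. Tbx18 did not pass without any 1 of the 8 WT and -KTS KO libraries, Ebf1 without any of those but XX WT replicate 1, and Anpep without any of those but XY WT replicate 1 nor without XX +KTS KO replicate 1 or 2. The count of genes was 2322 without XY WT replicate 2 and 2251 without XY -KTS KO replicate 2. Foxc1, Tbx18, Trpc6, Gucy1a1 and Notch3 rose, by 2.49, 2.49, 2.44, 1.90 and 1.07. Of the rule's genes Cspg4 fell by 0.92, while Rgs5, Kcnj8, Abcc9 and the receptor Pdgfrb did not pass (0.71, 0.91, 0.91 and 0.53). In the +KTS KO, where 2037 genes (10.6%) differed from WT (1164 higher, 6.08%, and 873 lower, 4.56%), Kcnj8 gave 1.75, 2.26, 3.10 and 4.57 CPM against 0.899, 1.93, 0.404 and 0.440 CPM in WT and rose by 1.88 ± 0.33. Abcc9 rose by 1.22 ± 0.31 with no overlap between the groups, and the mural and vasoactive genes Ano1 and S1pr3 rose by 2.20 and 1.94. Rgs5 stood at −1.01 ± 0.30 without passing (adjusted p = 0.0602, edgeR). Kcnj8 passed with any 1 library left out, and Abcc9 did not pass without XX WT replicate 1, XY WT replicate 1 or 2, XX +KTS KO replicate 1 or 2, or XY +KTS KO replicate 2. The count of genes was 651, 971, 926, 957 and 755 without XX WT replicate 1, XY WT replicates 1 and 2 and XX +KTS KO replicates 1 and 2.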

How the data were processed

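Single-cell RNA-seq counts were deposited as 1 matrix of UMI counts per library over 32285 genes; the authors made them with Cell Ranger 6.0 on mm10 (GRCm38), and no normalization had been applied. As in the study's methods, a barcode was kept when 1000 or more genes were detected and no more than 10% of its UMIs were mitochondrial. The authors' doublet calls and clusters were not used here; Scrublet scores were computed with scanpy 1.11.5, and the barcodes of highest score (0.8% per 1000 barcodes) were left out only as an alternative. Endothelial cells had at least 3 UMIs of Cdh5 and Tie1.

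Cells and gene lists were chosen with earlier results of these data known. UMIs were summed over the chosen cells of each library and tested with edgeR 4.0.16 (R 4.3.3; 6 groups, TMM, filterByExpr, quasi-likelihood F-test, Benjamini-Hochberg adjusted p below 0.05), and DESeq2 1.42.0 was an alternative. CPM are UMIs per 1000000 UMIs of the summed cells. The planned minimum of 10 cells a library left 7 libraries and no XX -KTS KO library, so comparisons with the -KTS KO used all 12 libraries with no minimum, a change made after seeing the counts, as were the endothelial, all-cell and Pdgfrb-gated comparisons. The 7-library fit had 2 residual degrees of freedom, both from the pairs of +KTS KO libraries. Shares of cells were compared over libraries with two-sided exact permutation tests (70 or 924 splits, smallest p of 0.0286 for 4 against 4). The fits were tested on simulated data with 200 changed genes.

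Genes named by size were the 10 largest rises and falls past the threshold whose libraries did not overlap, with at least 20 CPM in the higher side and no less there than in the kept cells around; others were members of the fixed lists. Some genes that these rules name are not reported here. The methods call the 2 libraries of a group independent without naming litters, and p-values measure the spread between libraries. The 12 libraries gave 1 to 32 chosen cells each, which limits the precision of every CPM value; 1 UMI was worth more than 100 CPM in the library with 1 cell. Alternatives were the UMI and gene thresholds, thinning to 5000 UMIs, doublet removal, the count filter, the test, the replicate block and each library left out.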

Additional observations from a re-analysis of the deposited data

Results flagged for a closer look

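For 4 normal values of equal spread, chance puts the outer gap above 0.829 of the range about 1 in 20 times. The libraries held 1 to 32 chosen cells, so that rate is not a reference here. Of 91 groups of 4 libraries checked, 11 held a library whose gap to its nearest neighbour exceeded 0.829 of the group's range. In the chosen cells these were Foxs1 in XY WT replicate 1 (75.2 CPM), Wnt4 and Etv2 in XX WT replicate 2 (227 and 206 CPM), Dkk1 in XY WT replicate 2 (180 CPM), Tagln in XX -KTS KO replicate 1 (387 CPM), Col4a1 in XX -KTS KO replicate 2 (229 CPM), Dkk1 in XY -KTS KO replicate 1 (208 CPM), Etv2 in XX +KTS KO replicate 1 (197 CPM), Col1a1 in XX +KTS KO replicate 2 (308 CPM) and Rspo1 in XY +KTS KO replicate 1 (92.1 CPM). In endothelial cells Abcc9 stood apart in XY -KTS KO replicate 2 (66.1 CPM).

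The difference between the +KTS KO and WT differed between XY and XX in the 7 libraries of at least 10 cells (edgeR interaction term) for 7 genes followed here, with WT represented by 1 library a sex. The interaction, in log2 units and positive where the difference was higher in XY, was 10.06 for Fst, 7.94 for Alx1, 4.17 for Slc24a5, −3.35 for Tnni1, −4.67 for Lmo1, −9.63 for Cst9 and −11.64 for Cck. Fst and Alx1 had no UMI in XY WT, so their values depend on the prior count and are not read as sizes. None of these passed with all 12 libraries.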

How the results depend on the processing

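With cells thinned to 5000 UMIs and at least 3 UMIs of the rule's genes asked for in place of 5, the differences in share kept their direction but shrank from −0.106 to −0.0208 (-KTS KO minus WT), from 0.0721 to 0.0227 (+KTS KO minus WT) and from −0.178 to −0.0435 (-KTS KO minus +KTS KO). The direction also held when the highest doublet scores were left out, when 1 UMI of Cdh5 and Tie1 was allowed and when germ and erythroid cells left the denominator. With at least 3 UMIs and no thinning the differences in share turned, to 0.0232 (-KTS KO minus WT), −0.0242 (+KTS KO minus WT) and 0.0474 percentage points (-KTS KO minus +KTS KO). The last difference was −0.137 with at least 8 UMIs, −0.144 with at least 3 of the rule's genes and −0.215 with Rgs5 left out. Each had an unadjusted exact permutation p of 0.0286 (adjusted p = 0.171, 0.0857 and 0.0857). The setting without Rgs5 also asked for at least 3 UMIs of the other genes in place of 5. It gave −0.0823 for the -KTS KO against WT, with the same exact permutation p of 0.0286 (adjusted p = 0.0857). The -KTS KO minus WT difference per 100 endothelial cells turned to −1.11, −1.67 and −2.44 under these settings, in the same order, and with at least 3 genes the XY minus XX share was −0.0139 and the +KTS KO stood 5.01 per 100 above WT (exact permutation p = 0.0286, adjusted p = 0.0857). None of these passed after adjustment.

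With 1 library left out, the share differed by −0.153 to −0.0642 (-KTS KO minus WT), 0.0251 to 0.114 (+KTS KO minus WT), −0.214 to −0.140 (-KTS KO minus +KTS KO) and −0.0186 to 0.0479 (XY minus XX); per 100 endothelial cells the ranges were −1.96 to 3.31 and 3.87 to 7.28 for the -KTS KO and the +KTS KO against WT. Gene counts ranged from 44 to 344 and 55 to 482 for the -KTS KO against WT and the +KTS KO, from 45 to 255 for the +KTS KO against WT, from 18 to 77 for sex, from 0 to 7 and 7 to 67 for the interactions of the -KTS KO and the +KTS KO, from 118 to 589 and 1 to 62 in endothelial cells, and from 2251 to 4187 and 651 to 3052 in all kept cells.

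DESeq2 called 138 and 185 genes for the -KTS KO against WT and the +KTS KO, 10 for the +KTS KO against WT, 0 for sex, 1 for the +KTS KO interaction, 68 for the +KTS KO in endothelial cells and 3406 in all kept cells. Cells with Kcnj8 or Abcc9, a subset by the rule's own genes with 5 -KTS KO cells and so given as a description, gave 445 genes (51 higher, 394 lower) for the -KTS KO and 8 for the +KTS KO against WT, 1 for sex, and 7 and 0 for the interactions. With all 12 libraries the +KTS KO gave 33 genes, sex 4 and the +KTS KO interaction 0. Without the highest doublet scores sex gave 131 genes and the interactions 1 and 91. With no filter on low counts the -KTS KO interaction gave 4 genes and the endothelial comparisons 992 and 421. Same-numbered libraries of different groups did not deviate together (correlations of −0.39 to 0.19), so the numbers do not pair them; with a replicate block the counts were 267, 333, 71, 19, 2 and 11 in the order of the comparisons above up to the interactions, and 44 for the +KTS KO in endothelial cells. The cause of these changes was not tested.

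Without XX -KTS KO replicate 1, 4 genes changed sign, and the range over all libraries left out was −3.94 to 1.72 for Myl9, −2.13 to 5.97 for Rspo1, −3.63 to 2.05 for Wt1 and −0.77 to 2.81 for Foxc1 against WT, and −3.70 to 1.79, −1.75 to 3.94 and −3.61 to 1.87 for the first 3 against the +KTS KO. For the +KTS KO against WT, Wt1 ranged from −0.94 to 0.00, the latter without XY +KTS KO replicate 2. In cells with Kcnj8 or Abcc9 the sign of the fitted difference changed for Atp8a1 (−0.99 and −0.27), Fxyd1 (−0.30), Gata4 (−1.28), Hspa2 (−0.46), Kitl (0.19) and Wt1 (1.33). Pooled over those cells, the levels of Atp8a1, Fxyd1, Gata4, Hspa2 and Kitl kept their direction, so their changes of sign are not read as reversals. Fits at 8 or more UMIs, at 3 or more genes or at 20 or more cells a library are not given. With a minimum of cells too few libraries were left. Without one, no XX -KTS KO library held a cell at 8 or more UMIs or at 3 or more genes, and the other comparisons of those fits are left out.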
